A study of Mus musculus with 16 samples.

Results

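The proximal T cell receptor signalling genes are 39 genes whose products carry the signal of the antigen receptor from the membrane to calcium, Ras and the nucleus, or restrain it. They are given by name, as a list of 39 symbols, and each gene was represented by its brightest probe over 16 arrays. All 39 of them were among the 14675 genes tested, and 38 of 39 were well above background on all 16 arrays. Gene expression was measured in spleen CD4+ T cells of male mice aged 8 to 10 weeks, purified with an isolation kit and then by cell sorting, on 1-colour Agilent arrays. Every mouse carried CD4-Cre, which is driven by the CD4 promoter and therefore acts in the T cell lineage from the thymus on, including cells that later become CD8+. NEMO knockout mice (NEMOfl/fl) also carried floxed Ikbkg, which encodes NEMO, the regulatory subunit of the IkB kinase complex that activates NF-kB, and IKK2 knockout mice (IKK2fl/fl) carried floxed Ikbkb, which encodes a catalytic subunit of the same complex. Cre control mice carried CD4-Cre alone. Nephritis was induced with nephrotoxic serum at 2.5 mg per g, an antibody-driven disease of the glomeruli, and those mice were examined on day 10, whereas the others were untreated. The 6 groups held 2 NEMO knockout arrays with nephritis, 2 without, 3 IKK2 knockout arrays with nephritis, 3 without, 3 Cre control arrays with nephritis and 3 without. By its title, the study asked how NEMO and IKK2 differ in this nephritis model. The labels do not tie arrays to animals, and p-values therefore measure the spread among the arrays at hand, which could be technical only.

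The T cell receptor has no enzyme activity of its own. Its CD3 and zeta chains are phosphorylated by the kinases Lck and Fyn, which recruits ZAP-70, and ZAP-70 phosphorylates the scaffolds LAT and SLP-76, on which Tec family kinases activate phospholipase C gamma. From there, calcium activates calcineurin and NFAT, diacylglycerol activates Ras and protein kinase C, which leads on to the IkB kinase complex that the knockouts target, while phosphatases, ubiquitin ligases and diacylglycerol kinases hold the signal down.

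On each array, 48.9% to 59.8% of the spots were well above background, and arrays of 1 group correlated at 0.971 to 0.993 across genes. Levels are log2 of the processed intensity minus the array's 75th percentile, so they compare 1 probe between arrays and not different genes. The 4 NEMO knockout arrays lay apart from the other 12 on the first principal component (49.1% of the variance). Those 4 arrays made up a slide of their own, so a difference between NEMO knockout and Cre control or IKK2 knockout cells and a difference between slides cannot be told apart. The third component set Cre control replicate 2 with nephritis apart from the rest, and the replicate spots of untreated Cre control replicate 1 had a median coefficient of variation of 21.1%, the highest of the 16 arrays. In a bulk sample, fewer cells of a type and less RNA per cell cannot be told apart. The targeted gene Ikbkg averaged -0.65 ± 0.09 (SD, n = 2) in NEMO knockout cells with nephritis and -0.31 ± 0.08 (SD, n = 3) in Cre control cells with nephritis, and -0.84 ± 0.14 (n = 2) and -0.70 ± 0.17 (n = 3) without it. The first difference passed the test (-0.34, SE 0.11, limma adjusted p = 0.0196) and the second did not (-0.13, SE 0.11, limma adjusted p = 0.337). Ikbkb averaged 2.96 ± 0.06 and 3.30 ± 0.14 (SD, n = 3 each) in IKK2 knockout and Cre control cells with nephritis, and 3.06 ± 0.22 and 3.30 ± 0.01 (SD, n = 3 each) without it, with limma adjusted p = 0.134 and 0.162. In NEMO knockout cells Ikbkb was also lower (-0.48 and -0.35, SE 0.12 each, limma adjusted p = 0.00653 and 0.0371), and in untreated IKK2 knockout cells Ikbkg was higher (0.68, SE 0.10, limma adjusted p = 0.00152). No source used here places either probe within the deleted exons, so these levels do not check the labels, and per the labels deletion was assessed by PCR on sorted cells.

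Markers of other cells differed between the groups. Their counts are to be read against the shares of all genes that passed. Between NEMO knockout and Cre control cells 18.8% were higher and 29.6% lower with nephritis, and 21% and 22% without. Between IKK2 knockout and Cre control cells 0.995% were higher and 1.59% lower with nephritis, and 10% and 4.52% without. All 8 measured markers of T cells and Cd4 were well above background on all 16 arrays. Of these 8 markers, 4 fell in NEMO knockout cells with nephritis (50%) and 3 without (37.5%). They were the transcription factor genes Lef1 (-2.30 and -1.66), Tcf7 (-0.94 and -0.70) and Bcl11b (-0.92 and -0.72) in both and Skap1 (-0.50) with nephritis. Of 12 B cell markers, 3 were higher and 1 lower in NEMO knockout than in Cre control cells with nephritis and 9 higher without, while in IKK2 knockout cells 0 passed with nephritis and 11 were higher without. The summed level of the B cell markers, on a linear scale relative to each array's 75th percentile, was 22.7 to 22.9 in NEMO knockout cells with nephritis and 19.0 to 19.9 without, 13.6 to 21.4 and 17.5 to 22.4 in IKK2 knockout cells, and 7.62 to 15.7 and 3.77 to 4.50 in Cre control cells. Of the 12, 8 were well above background on all untreated Cre control arrays and 9 on all with nephritis, while Pax5, Ebf1 and Blk were on no Cre control array and Pax5 on no NEMO knockout array. Of 12 myeloid markers, 7 were higher in NEMO knockout cells in each condition, and 0 and 9 in IKK2 knockout cells. Their summed level was 106 to 186 and 83.2 to 83.5 in NEMO knockout cells, 72.4 to 124 and 64.6 to 85.6 in IKK2 knockout cells, and 39.5 to 96.1 and 73.4 to 91.5 in Cre control cells, with nephritis and without. Of 8 dendritic cell markers, 6 were higher in NEMO knockout cells in each condition, and of 10 natural killer cell markers 6 and 8 were higher and 1 lower in each. In IKK2 knockout cells 0 of either list passed with nephritis, and without it 3 dendritic cell markers were higher and 4 natural killer cell markers higher and 1 lower. Of 6 plasma cell markers 3 and 6 were higher in NEMO knockout cells, and 0 and 2 in IKK2 knockout cells. Of 6 platelet markers 2 and 0 were higher in NEMO knockout cells, and 1 and 0 in IKK2 knockout cells. Of 6 erythroid markers 1 was lower in NEMO knockout cells with nephritis, and 0 passed in the other comparisons of a knockout with Cre control cells. Of 5 measured gamma-delta T cell markers, which include Blk, 4 were higher in NEMO knockout cells in each condition and 1 was lower without nephritis, and of the CD8 chains Cd8a was higher (1.68 and 2.25) and Cd8b1 lower (-0.91 and -0.87). The summed level of the 39 genes was 1561 to 1575 in NEMO knockout cells with nephritis and 1636 to 1667 without, against 1762 to 1977 and 1767 to 1902 in Cre control cells. Bright probes weigh most in such a sum. The brightest is that of Lck, whose direction turns with the scaling (below), so no direction of the set is taken from the sum. Markers also differed within Cre control cells, where nephritis and slide coincide and 4.03% of all genes passed. With nephritis 6 of 12 B cell, 2 of 12 myeloid, 2 of 6 erythroid and 2 of 6 plasma cell markers were higher. Of 5 gamma-delta T cell markers 1 was lower. The summed erythroid level was 7.45 to 420 with nephritis and 6.64 to 11.5 without. The part of all these markers in the differences of the 39 genes was not tested.

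Of all genes tested, 48.4% passed a limma adjusted p of 0.05 between NEMO knockout and Cre control cells with nephritis, 18.8% being higher and 29.6% lower in the knockout. Of the 39 receptor signalling genes, 20 passed, 4 higher and 16 lower, which is 51.3% and close to that background, and the lower ones include Lck, whose sign turns with the scaling. Without nephritis 43% of all genes passed, 21% higher and 22% lower, and 18 of the 39 genes passed (46.2%), 6 higher and 12 lower. The median difference of the 39 genes was -0.16 with nephritis and -0.07 without, against -0.14 and -0.06 over all genes tested. The set as a whole thus lay near the background, and the values below show which of its members moved. The pairs of groups behind the 2 conditions share no arrays, but the 4 NEMO knockout arrays share a slide that holds no Cre control array. A difference between slides would enter both comparisons, so they are not independent. The same 15 genes passed in the same direction in both conditions (Lck among them on this scale), and 0 passed in opposite directions. That is 75% of the first list and 83.3% of the second, and the matching shares of all genes are not given here. Of the 39 genes, 36 had the same sign in both (92.3%), against 82.0% of all genes tested.

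**Figure D1:**
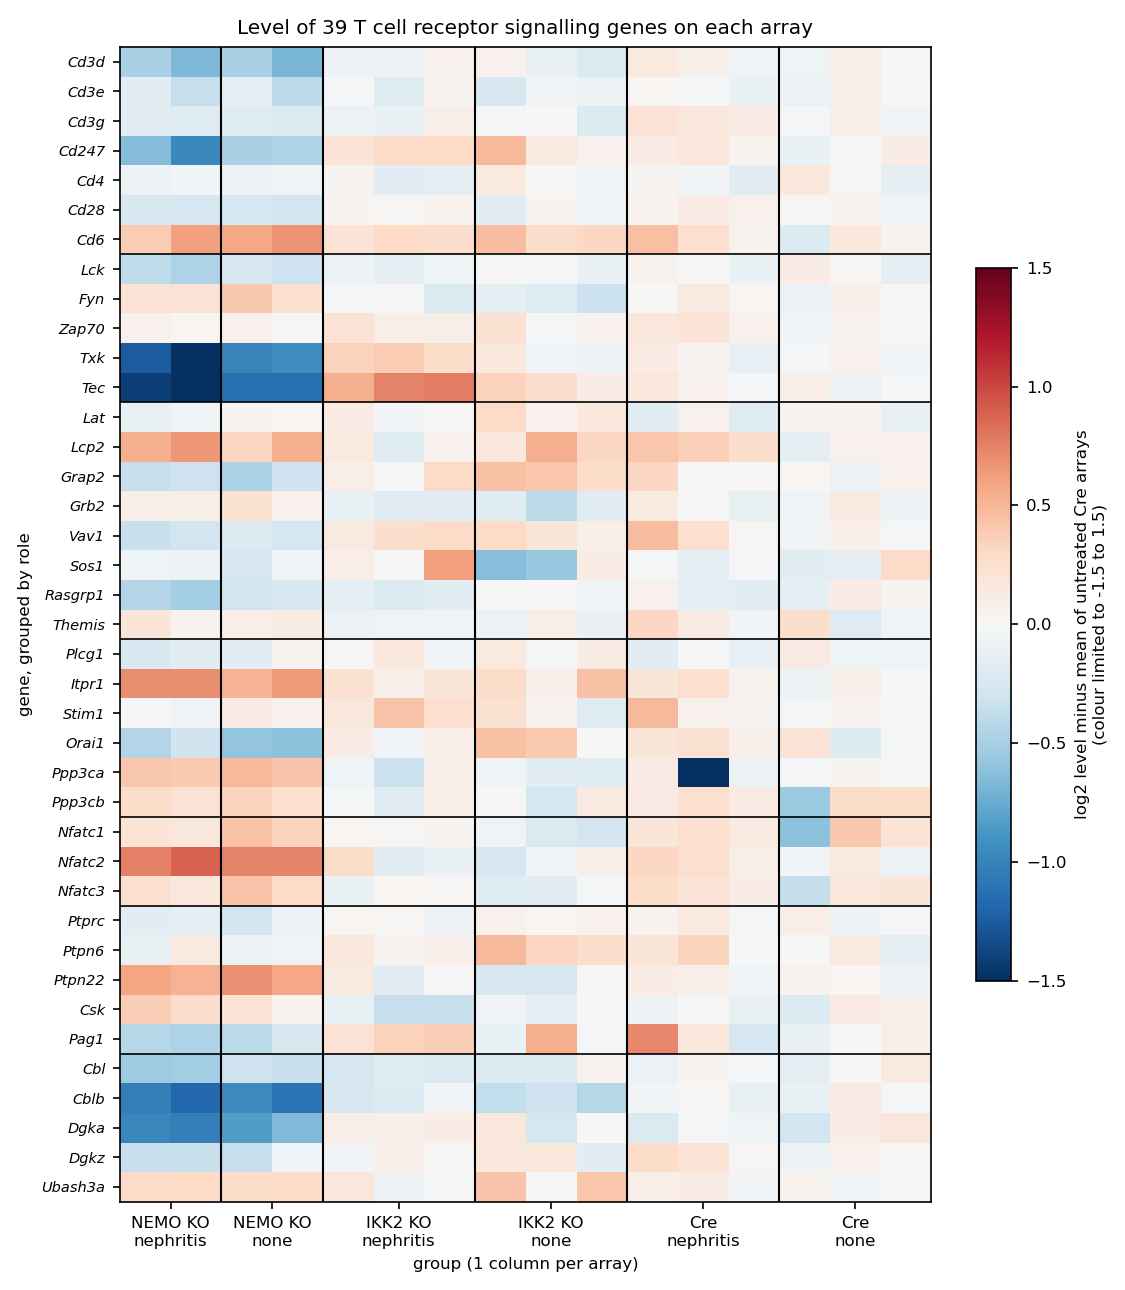
Level of each of the 39 genes (rows, grouped by role) on each of the 16 arrays (columns, grouped), as log2 level minus the mean of the 3 untreated Cre control arrays, with colours limited to -1.5 to 1.5. Txk and Tec are lowest on all 4 NEMO knockout arrays, Nfatc2 and Ptpn22 are higher there, and 1 cell of Ppp3ca stands apart on Cre control replicate 2 with nephritis.

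Of the 39 genes, the Tec family kinases Tec and Txk (also called Rlk), which activate phospholipase C gamma, and the ubiquitin ligase gene Cblb had the largest decreases in NEMO knockout cells, and Tec and Txk are neighbours on chromosome 5. The promoters of these 3 genes are shown because they fell most, with that of Nfatc2, the largest increase that passed the test. Each sequence is the 300 bases from 250 before to 50 after the most upstream RefSeq start, on the gene's own strand and 5′ to 3′. Capitals mark the NFAT core GGAAA or the GC box GGGCGG on either strand, which do not overlap in these sequences. The positions in GRCm38.p6 are chr5:72752728-72753027 (minus strand) for Txk, chr5:72868399-72868698 (minus) for Tec, chr16:52031299-52031598 (plus) for Cblb and chr2:168601608-168601907 (minus) for Nfatc2, and all sequences are from RefSeq.
Txk: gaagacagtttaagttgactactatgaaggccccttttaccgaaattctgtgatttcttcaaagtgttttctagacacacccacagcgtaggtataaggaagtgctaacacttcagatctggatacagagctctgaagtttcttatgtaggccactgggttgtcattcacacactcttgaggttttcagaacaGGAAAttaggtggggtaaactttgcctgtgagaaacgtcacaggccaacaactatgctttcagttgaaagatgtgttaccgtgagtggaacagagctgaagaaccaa
Tec: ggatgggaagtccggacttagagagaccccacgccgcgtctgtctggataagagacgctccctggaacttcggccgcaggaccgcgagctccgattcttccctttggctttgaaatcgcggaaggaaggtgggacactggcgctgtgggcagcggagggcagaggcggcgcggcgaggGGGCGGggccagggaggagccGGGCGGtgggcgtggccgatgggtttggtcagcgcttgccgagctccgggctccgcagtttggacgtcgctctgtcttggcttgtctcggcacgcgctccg
Cblb: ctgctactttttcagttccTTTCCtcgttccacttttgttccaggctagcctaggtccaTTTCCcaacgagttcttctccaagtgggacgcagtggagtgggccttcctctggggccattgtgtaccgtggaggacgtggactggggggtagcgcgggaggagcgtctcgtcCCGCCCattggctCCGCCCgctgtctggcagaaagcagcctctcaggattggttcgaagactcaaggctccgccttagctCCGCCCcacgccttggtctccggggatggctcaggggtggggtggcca
Nfatc2: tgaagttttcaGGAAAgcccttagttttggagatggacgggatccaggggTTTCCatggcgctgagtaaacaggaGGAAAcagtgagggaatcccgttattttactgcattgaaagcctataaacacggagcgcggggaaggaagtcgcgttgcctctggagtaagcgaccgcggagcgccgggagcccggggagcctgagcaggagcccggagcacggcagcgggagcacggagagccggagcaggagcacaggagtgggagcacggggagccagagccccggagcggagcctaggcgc

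The neighbours differ in promoter composition. The Txk promoter held 42.7% G or C and 4 CpG pairs, below the lower quartile of 45.7% over all 27025 mouse promoters of this length, and 1 NFAT core. The Tec promoter held 67.7% G or C, above the upper quartile of 61.7%, with 33 CpG pairs and 2 GC boxes. The Cblb promoter held 61.3% G or C with 2 NFAT cores and 3 GC boxes, and the Nfatc2 promoter held 62.0% with 3 NFAT cores. Of the 39 genes, 32 had a promoter in the table. The NFAT core stood in 20 of these 32 (62.5%) and in 61.3% of all promoters, and the GC box in 14 (43.8%) and in 35.9%. The kappa B consensus and the AP-1 heptamer TGACTCA, on either strand, stood in 0 of the 32, against 4.3% and 5.2% of all promoters. These counts describe the letters in a short window and say nothing of binding by the factors.

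Among the kinases, Tec had levels of 0.20 and 0.06 in NEMO knockout cells with nephritis and of 0.49 on both arrays without it, against 1.79, 1.69 and 1.59 in Cre control cells with nephritis and 1.72, 1.53 and 1.60 without. All 4 knockout arrays lay below all 6 control arrays. The difference was -1.56 (SE 0.10, limma adjusted p = 7.9e-07) with nephritis, a 2.94-fold lower level, and -1.12 (SE 0.10, limma adjusted p = 6.99e-06) without. Txk had levels of 3.80 and 3.53 in NEMO knockout cells with nephritis and 4.05 and 4.12 without, against 5.17, 5.09 and 4.92 in Cre control cells with nephritis and 5.03, 5.11 and 5.00 without. Again the groups did not overlap, and the differences were -1.39 (SE 0.11, limma adjusted p = 1.85e-06) and -0.96 (SE 0.11, limma adjusted p = 2.41e-05).

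Lck, the Src family kinase bound to the CD4 tail, is a case where the direction depends on how arrays are scaled. On the 75th percentile scale it had levels of 8.09 and 8.01 in NEMO knockout cells with nephritis and 8.24 and 8.16 without, against 8.53, 8.49 and 8.37 in Cre control cells with nephritis and 8.59, 8.50 and 8.34 without. On that scale it was lower by both tests (-0.41 and -0.28, SE 0.09 each, limma adjusted p = 0.00196 and 0.0212). After quantile normalization it was higher instead, by 0.16 and 0.37, and in the authors' deposited matrix the limma differences were 0.16 and 0.35. Of these, the increase without nephritis passed the test after quantile normalization (limma adjusted p = 0.00585) and in the authors' deposited matrix (limma adjusted p = 0.0119). The Lck probe ranked at the 99.3rd to 99.6th percentile of probes on the 16 arrays. Its processed intensity was 105500 and 108000 on the NEMO knockout arrays with nephritis and 123200, 107000 and 107900 on the matching Cre control arrays. No direction for Lck is therefore given here.

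**Figure D2:**
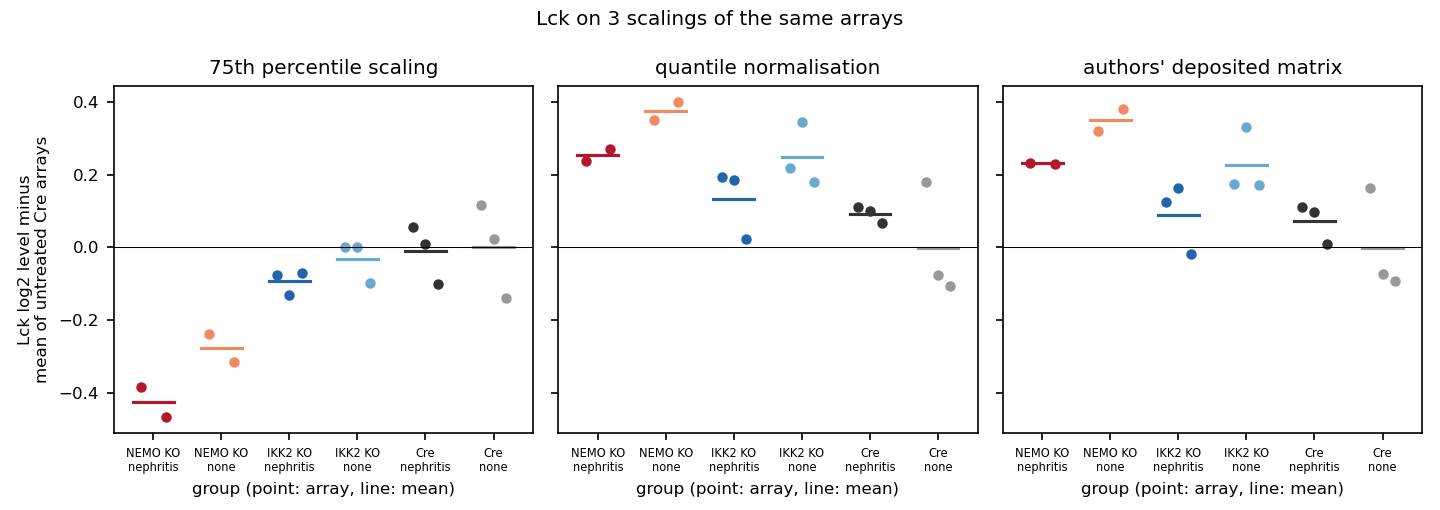
Lck level on each array minus the mean of the 3 untreated Cre control arrays (log2, vertical axis) by group (horizontal axis), on 3 scalings, with points for arrays and lines for group means. The 4 NEMO knockout arrays lie below the Cre control arrays after 75th percentile scaling and above the mean of untreated Cre control arrays after quantile normalization and in the authors' deposited matrix.

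Fyn, the other Src family kinase of the receptor, was at 2.93 and 2.78 in NEMO knockout cells without nephritis and at 2.44, 2.61 and 2.55 in untreated Cre control cells, with no overlap (0.32, SE 0.09, limma adjusted p = 0.0156). The difference was 0.20 after normexp correction and 0.14 in the authors' deposited matrix and did not pass there (limma adjusted p = 0.148 and 0.353). With nephritis its difference was 0.17 and did not pass. Zap70, the kinase that binds the phosphorylated CD3 chains, had group means between 6.72 and 6.87 and passed in no comparison. It differed by -0.10 with nephritis (95% interval -0.29 to 0.08) and by 0.04 without (-0.15 to 0.22).

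At the membrane, the decreases in NEMO knockout cells were in signalling chains of the receptor and in CD28, while Cd4 itself did not pass the test. Cd247, which encodes the zeta chain, was at 2.01 and 1.70 in NEMO knockout cells with nephritis and 2.18 and 2.20 without, against 2.79, 2.84 and 2.72 in Cre control cells with nephritis and 2.57, 2.66 and 2.77 without. The groups did not overlap, and the differences were -0.93 (SE 0.13, limma adjusted p = 0.000126) and -0.48 (SE 0.13, limma adjusted p = 0.0102). Cd3d was at 7.03 and 6.84 in NEMO knockout cells with nephritis and at 7.02 and 6.83 without, against 7.45 to 7.66 in Cre control cells with nephritis and 7.45 to 7.62 without. It fell by 0.64 and by 0.59 (SE 0.11 each, limma adjusted p = 0.000596 and 0.00123). After quantile normalization the differences were -0.28 and -0.13, and the second no longer passed (limma adjusted p = 0.221). Cd3g, its neighbour on chromosome 9 and also a CD3 chain, had group means of 6.51 to 6.87 and fell with nephritis (-0.35, SE 0.09, limma adjusted p = 0.00612) but not after quantile normalization (-0.14), after normexp correction (-0.26) or in the authors' deposited matrix (-0.16), and did not pass without nephritis (-0.19). Cd3e, the next CD3 gene there, had group means of 6.79 to 7.06 and differed by -0.23 and -0.26 without passing (limma adjusted p = 0.093 and 0.063). Cd28, the main costimulatory receptor, averaged 5.29 ± 0.01 and 5.26 ± 0.00 (SD, n = 2 each) in NEMO knockout cells and 5.62 ± 0.04 and 5.53 ± 0.06 (SD, n = 3 each) in Cre control cells, with nephritis and without, and fell by 0.33 and by 0.27 (SE 0.07 each, limma adjusted p = 0.00267 and 0.0096). Its differences were -0.19 and -0.08 in the authors' deposited matrix and -0.22 and -0.06 after normexp correction, and neither passed there. Cd6, a scavenger receptor family member that tunes receptor signals, was at 7.65 and 7.74 in NEMO knockout cells without nephritis, above 6.86, 7.22 and 7.13 in untreated Cre control cells (0.62, SE 0.13, limma adjusted p = 0.00262). With nephritis its groups overlapped and it did not pass (0.25). Cd4, the coreceptor by which the cells were sorted, was between 5.86 and 6.19 on all 16 arrays, with differences of -0.02 (95% interval -0.25 to 0.22) and -0.07 (-0.30 to 0.16).

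**Figure D3:**
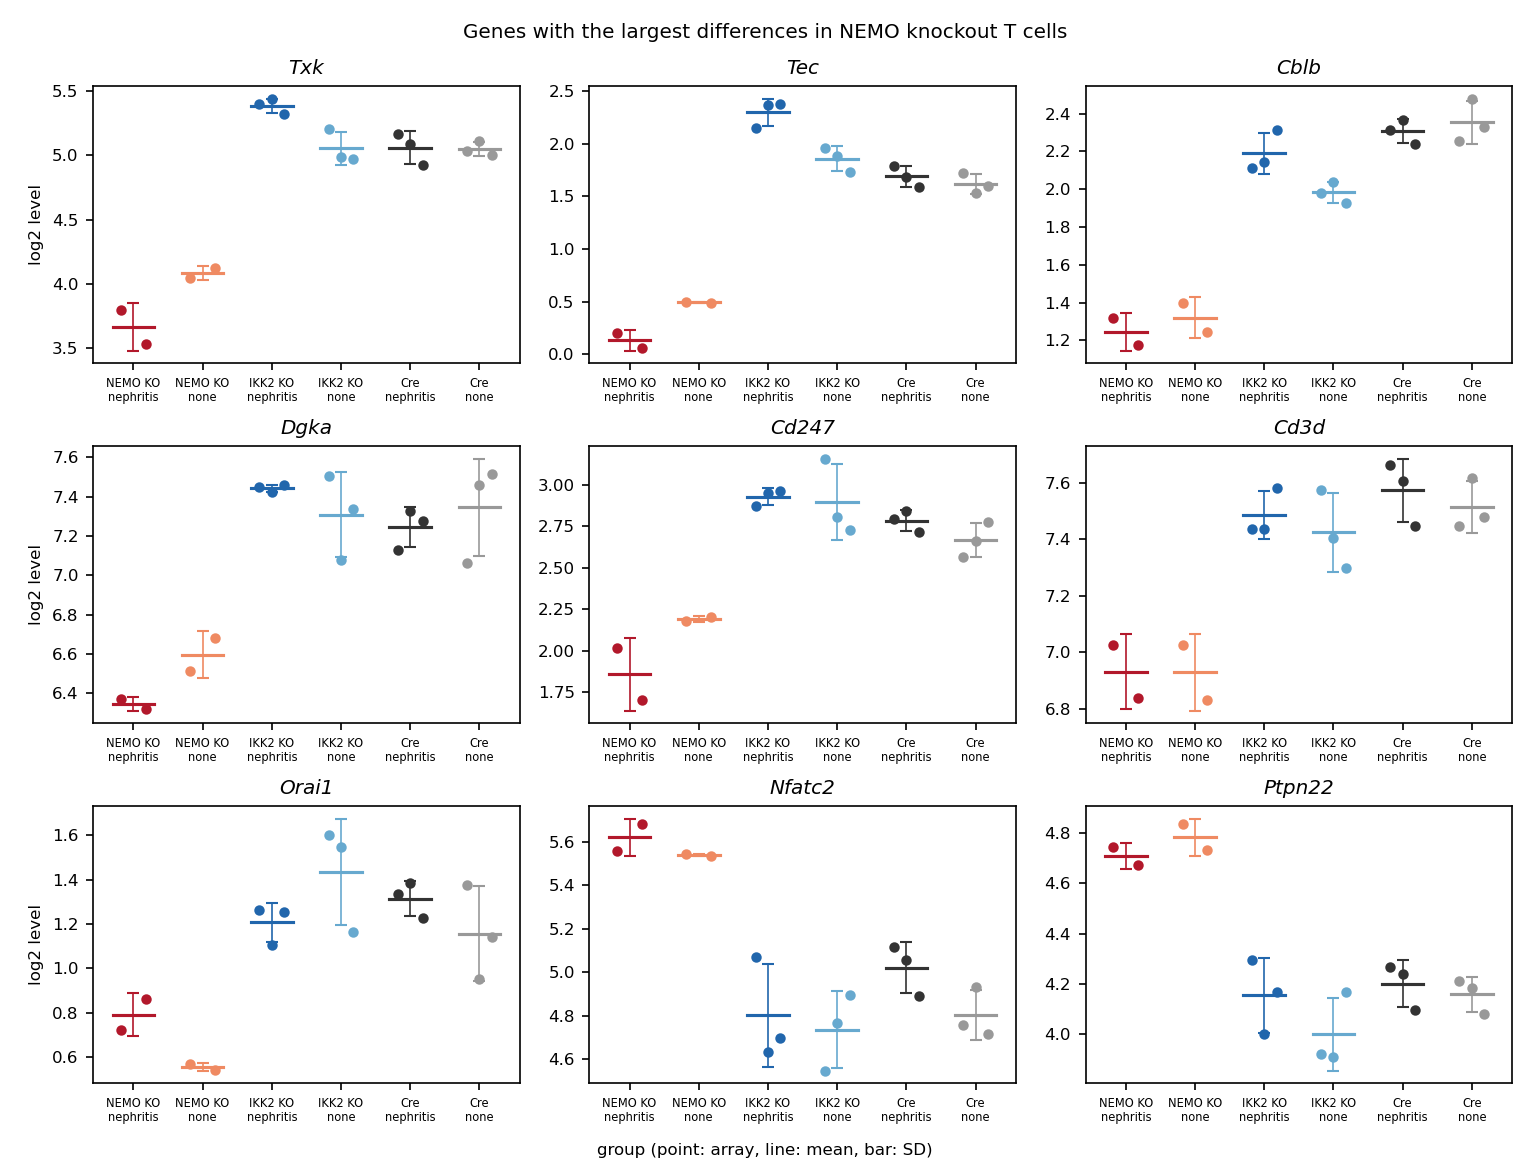
Log2 level (vertical axis) of 9 genes with large differences in NEMO knockout cells, by group (horizontal axis), with points for arrays, lines for group means and bars for the SD. For Txk, Tec, Cblb, Dgka, Cd247, Cd3d, Orai1, Nfatc2 and Ptpn22, all 4 NEMO knockout arrays lie apart from the Cre control arrays, below them for the first 7 and above them for the last 2.

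Of 8 adaptor and Ras genes, 3 fell with nephritis, and without it 2 fell and 1 rose. Grap2, which encodes the adaptor Gads that links LAT to SLP-76, was at 1.12 and 1.16 in NEMO knockout cells with nephritis and 1.08 ± 0.11 (SD, n = 2) without, against 1.78, 1.45 and 1.47 in Cre control cells with nephritis and 1.49, 1.38 and 1.54 without. These groups did not overlap (-0.42 and -0.39, SE 0.12 each, limma adjusted p = 0.0117 and 0.019). Without nephritis the difference was -0.22 after normexp correction and -0.27 in the authors' deposited matrix and did not pass there (limma adjusted p = 0.182 and 0.0883). Lcp2, which encodes SLP-76 itself, was higher without nephritis, at 1.46 and 1.68 in NEMO knockout cells against 1.01, 1.22 and 1.21 in Cre control cells (0.42, SE 0.13, limma adjusted p = 0.0205), and did not pass with nephritis (0.25). Of 15 alternatives 5 ended the Lcp2 call without nephritis, among them the authors' deposited matrix (0.41, limma adjusted p = 0.0542). Vav1, an exchange factor for Rac, fell with nephritis (-0.55, SE 0.12, limma adjusted p = 0.00205), at 5.97 ± 0.04 (SD, n = 2) against 6.74, 6.54 and 6.30 in Cre control cells with no overlap, and did not pass without (-0.23). Rasgrp1, the diacylglycerol-dependent activator of Ras, had group means of 4.64 to 5.11 and fell by 0.39 and by 0.26 (SE 0.09 each, limma adjusted p = 0.00406 and 0.0366). Of 15 alternatives, 1 ended the Rasgrp1 call with nephritis and 9 the call without. The scaffold gene Lat had group means of 6.12 to 6.38 and differed by 0.00 with nephritis (95% interval -0.21 to 0.22) and by 0.04 without (-0.18 to 0.25). Grb2, Sos1 and Themis, which encode an adaptor, a Ras exchange factor and a regulator of Lck signalling, did not pass in either condition, with group means of 4.62 to 5.02, -3.50 to -2.90 and 2.34 to 2.54.

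In the calcium branch, 1 of 6 genes rose and 1 fell in each condition. Itpr1, an inositol trisphosphate receptor that releases calcium from the endoplasmic reticulum, was at 3.70 on both NEMO knockout arrays with nephritis and at 3.52 and 3.64 without, against 3.19, 3.26 and 3.06 in Cre control cells with nephritis and 2.93, 3.08 and 2.99 without. It was higher on all 4 arrays (0.53 and 0.58, SE 0.11 each, limma adjusted p = 0.00158 and 0.000999). Orai1, the pore of the store-operated calcium channel, was at 0.72 and 0.86 in NEMO knockout cells with nephritis and at 0.57 and 0.54 without, against 1.33, 1.38 and 1.23 in Cre control cells with nephritis and 1.38, 0.95 and 1.14 without. It was lower on all 4 arrays (-0.52 and -0.60, SE 0.14 each, limma adjusted p = 0.00986 and 0.00503). Plcg1, which encodes phospholipase C gamma 1, Stim1, the calcium sensor that opens Orai1, and the calcineurin gene Ppp3cb did not pass in either condition, with group means of 0.81 to 1.08, 4.67 to 4.98 and 2.78 to 3.12. The other calcineurin gene, Ppp3ca, rests on 1 array. Cre control replicate 2 with nephritis read -5.84 there, from a processed intensity of 5.20 that was not above background, whereas the other 15 arrays read 2.85 to 3.65 with intensities of 2103 to 4943. The difference of 3.39 with nephritis (SE 1.97, limma adjusted p = 0.174) became 0.38 without that array (limma adjusted p = 0.0262).

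Of the NFAT genes, Nfatc2, which encodes NFAT1, was higher at 5.56 and 5.68 in NEMO knockout cells with nephritis and 5.54 on both arrays without, against 5.11, 5.06 and 4.89 in Cre control cells with nephritis and 4.75, 4.93 and 4.72 without. The groups did not overlap (0.60 and 0.74, SE 0.14 each, limma adjusted p = 0.00418 and 0.00127). Nfatc1 and Nfatc3, which encode NFAT2 and NFAT4, did not pass in either condition, with differences of 0.00 and 0.01 with nephritis and 0.38 and 0.36 without and group means of 3.13 to 3.70 and 2.55 to 3.03. The differences without nephritis rest largely on untreated Cre control replicate 1. It read 2.71 for Nfatc1, against 3.72 and 3.53 on the other untreated Cre control arrays, and 2.32 for Nfatc3, against 2.84 and 2.86.

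Among the genes that restrain the receptor, the decreases were in ubiquitin ligases and diacylglycerol kinases and in Pag1, and the increases in the Csk and Ptpn22 pair. Cblb, a ubiquitin ligase that raises the need for CD28 costimulation, was at 1.32 and 1.17 in NEMO knockout cells with nephritis and 1.40 and 1.24 without, against 2.31, 2.37 and 2.24 in Cre control cells with nephritis and 2.25, 2.48 and 2.33 without. It was lower by 2.09-fold with nephritis and 2.05-fold without (-1.06 and -1.03, SE 0.09 each, limma adjusted p = 5.42e-06 and 7.16e-06). Its relative Cbl had group means of 1.07 to 1.60 and fell by 0.51 and by 0.32 (SE 0.10 each, limma adjusted p = 0.00129 and 0.0204). Its differences were -0.45 and -0.10 in the authors' deposited matrix and -0.43 and -0.07 after normexp correction, and neither passed there. Dgka, a kinase that removes diacylglycerol, was at 6.37 and 6.32 in NEMO knockout cells with nephritis and 6.51 and 6.68 without, against 7.13, 7.33 and 7.28 in Cre control cells with nephritis and 7.06, 7.46 and 7.52 without. The groups did not overlap (-0.90 and -0.75, SE 0.14 each, limma adjusted p = 0.000363 and 0.0014), though without nephritis the difference was -0.27 in the authors' deposited matrix and -0.51 after normexp correction and did not pass there. Dgkz, which encodes the zeta isoform, was at 4.99 on both NEMO knockout arrays with nephritis and at 5.35 to 5.60 on the Cre control arrays with nephritis, and it fell there (-0.51, SE 0.12, limma adjusted p = 0.00456) and did not pass without (-0.20). Ubash3a, which encodes a phosphatase-like suppressor, averaged 1.49 ± 0.01 (SD, n = 2) in NEMO knockout cells and 1.21 ± 0.06 (SD, n = 3) in Cre control cells without nephritis and passed in neither condition (0.24 and 0.29).

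Ptpn22, a phosphatase that acts on Lck and Fyn with Csk, was at 4.75 and 4.67 in NEMO knockout cells with nephritis and 4.84 and 4.73 without, against 4.27, 4.24 and 4.09 in Cre control cells with nephritis and 4.21, 4.18 and 4.08 without. The groups did not overlap (0.51 and 0.63, SE 0.11 each, limma adjusted p = 0.00223 and 0.000638). Csk, the kinase that puts Lck into its closed form, was higher with nephritis, at 3.19 and 3.09 against 2.75, 2.83 and 2.72 in Cre control cells (0.38, SE 0.11, limma adjusted p = 0.0157), and did not pass without (0.14). Pag1, which anchors Csk at the membrane, had a dim probe with group means of -3.92 to -3.17 and fell with nephritis (-0.65, SE 0.24, limma adjusted p = 0.0396). Of 15 alternatives 10 ended this call, among them quantile normalization (-0.50) and the authors' deposited matrix (-0.30). Ptprc, which encodes CD45, and Ptpn6, which encodes SHP-1, did not pass in either condition, with group means of 5.36 to 5.62 and 4.52 to 4.94.

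Tec, Txk, Cblb, Nfatc2, Itpr1 and Ptpn22 passed against Cre control cells in both conditions under each of the 15 alternatives run. The NEMO knockout arrays share a slide with no other group, so no alternative separates genotype from slide. Other calls were lost when 1 NEMO knockout array was left out, which leaves 1 array in that group, while the difference kept its sign. Pag1 with nephritis lost its call without either array (-0.67 and -0.63). So did Cd28 (-0.27 and -0.27), Cbl (-0.33 and -0.31) and Lck without nephritis. Without replicate 1 with nephritis, Grap2 was at -0.41 (limma adjusted p = 0.068), Orai1 at -0.45 (0.0797) and Csk at 0.33 (0.108), and without replicate 2 Grap2 was at -0.44 (0.0522). Without untreated replicate 1, Cd247 was at -0.46 (limma adjusted p = 0.062), Fyn at 0.24 (0.15), Grap2 at -0.31 (0.15) and Rasgrp1 at -0.25 (0.154), and without replicate 2 Cd247 was at -0.49 (0.0503), Lcp2 at 0.31 (0.175) and Rasgrp1 at -0.28 (0.112). After normexp correction, Cd247 was at -0.32 without nephritis (limma adjusted p = 0.0771), and Rasgrp1 was at -0.25 with nephritis (0.0709) and -0.24 without (0.0976).

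**Figure D4:**
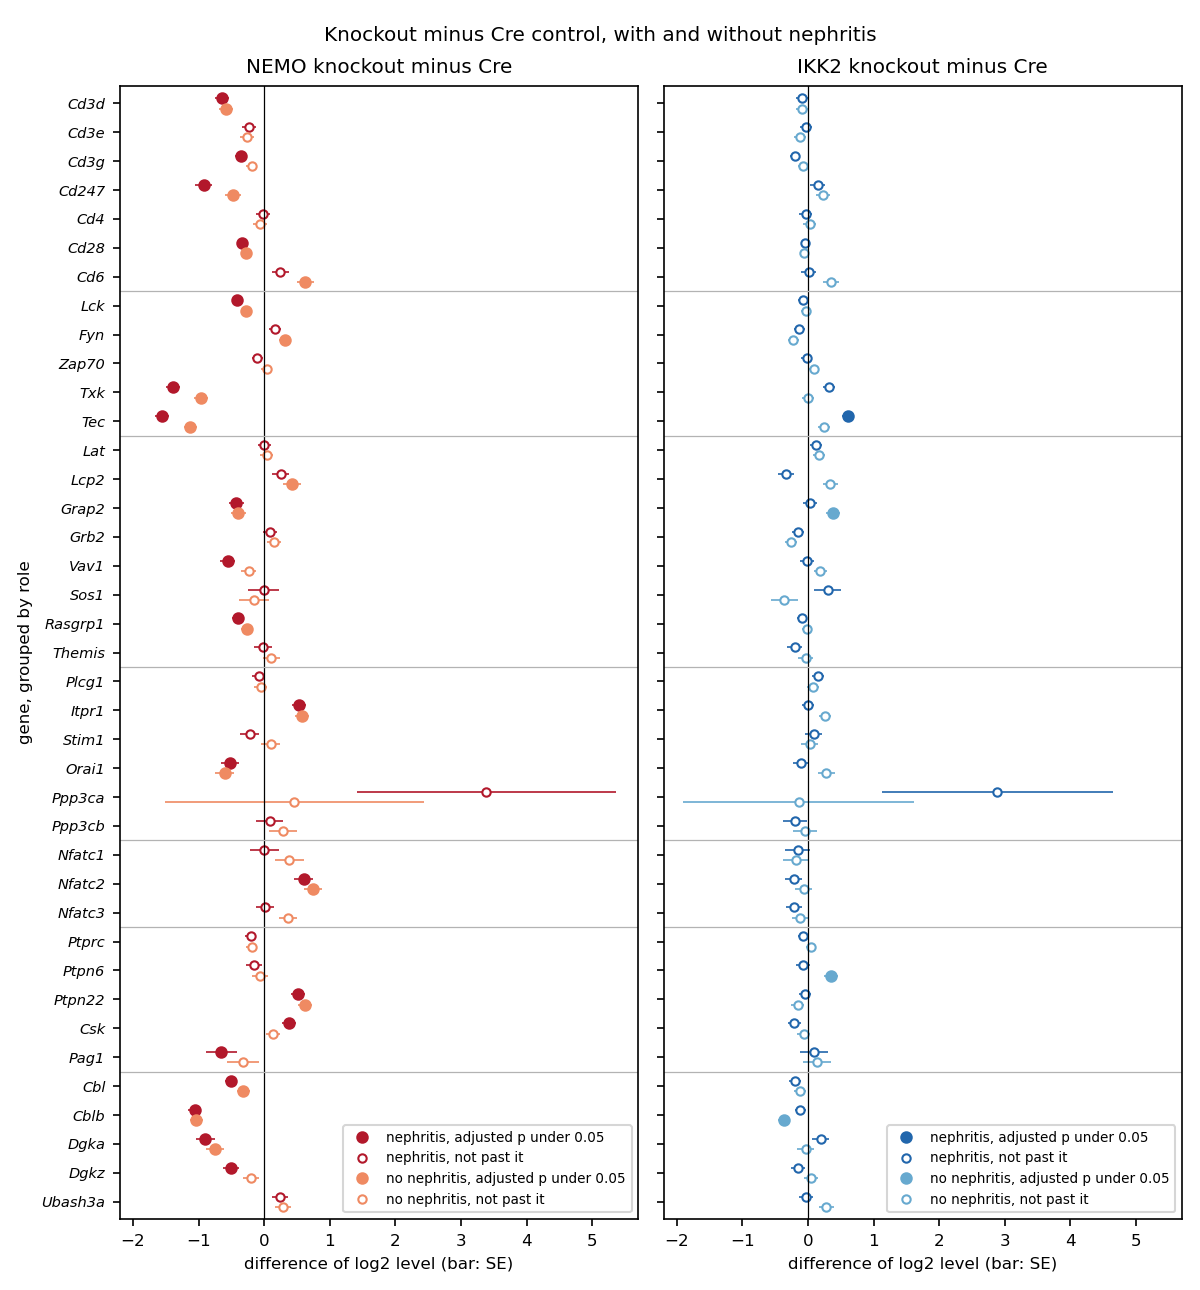
Difference of log2 level, knockout minus Cre control (horizontal axis, bars for the SE), of the 39 genes grouped by role, for NEMO knockout cells (left) and IKK2 knockout cells (right), with nephritis (dark) and without (light), filled where the limma adjusted p was under 0.05. In NEMO knockout cells 20 and 18 genes pass, and in IKK2 knockout cells 1 and 3. The long bars belong to Ppp3ca, for which 1 Cre control array had a processed intensity of 5.20, and Lck, filled and negative at left, turned positive after quantile normalization and in the authors' deposited matrix.

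IKK2 knockout cells differed little from Cre control cells over these genes. With nephritis, 2.58% of all genes passed, 0.995% being higher and 1.59% lower, and 1 of the 39 genes (2.56%) passed. That gene was Tec, at 2.15, 2.37 and 2.38 in IKK2 knockout cells against 1.79, 1.69 and 1.59 in Cre control cells, with no overlap (0.61, SE 0.09, limma adjusted p = 0.00637). All 6 of these arrays were on 1 slide. In a fit of that slide alone or of these 2 groups alone the difference was the same and did not pass (limma adjusted p = 0.063 and 0.102). Txk was also higher on each of the 3 arrays, at 5.40, 5.43 and 5.32 against 5.17, 5.09 and 4.92, and did not pass (0.32, SE 0.09, limma adjusted p = 0.098).

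Without nephritis 14.6% of all genes passed between IKK2 knockout and Cre control cells, 10% higher and 4.52% lower, and 3 of the 39 genes (7.69%) did. Grap2 was at 1.91, 1.89 and 1.74 in IKK2 knockout cells against 1.49, 1.38 and 1.54 in Cre control cells (0.38, SE 0.11, limma adjusted p = 0.0356). Ptpn6, which encodes the phosphatase SHP-1, was at 5.08, 4.90 and 4.86 against 4.58, 4.73 and 4.45 (0.36, SE 0.11, limma adjusted p = 0.0446). Cblb was at 1.98, 2.04 and 1.93 against 2.25, 2.48 and 2.33 (-0.37, SE 0.08, limma adjusted p = 0.0149). These groups do not overlap for any of the 3 genes, but the 3 control arrays and 1 of the 3 knockout arrays were on a slide that the other 2 knockout arrays were not on, and with slide as a block 0 of the 39 genes passed. In that fit Cblb was at -0.43 (limma adjusted p = 0.0737), Grap2 at 0.27 (0.339) and Ptpn6 at 0.27 (0.352). A second, dimmer Cblb probe ran the other way (0.40), and with the probes averaged the Cblb difference was 0.02. Counting this one, 24 calls of the 39 genes in the knockout comparisons had a further probe of the gene, and 23 had the same sign on it.

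Compared directly with IKK2 knockout cells, NEMO knockout cells with nephritis had 6 of the 39 genes higher and 15 lower, where 46.1% of all genes passed, 19% higher and 27.1% lower. Without nephritis 6 were higher and 13 lower, where 35.3% passed, 15.4% higher and 19.9% lower. The same 15 genes passed in both conditions, which is 71.4% and 78.9% of the 2 lists, and the matching shares of all genes are not given here. Tec had the largest difference of the 39 genes in both, at -2.16 with nephritis (SE 0.10, a 4.49-fold lower level, limma adjusted p = 1.05e-07) and -1.36 without (SE 0.10, limma adjusted p = 4.76e-06). Its levels were 0.20 and 0.06 in NEMO knockout cells with nephritis and 2.15, 2.37 and 2.38 in IKK2 knockout cells with nephritis. Txk was lower by 1.72 and by 0.97 (SE 0.11 each, limma adjusted p = 4.25e-07 and 3.82e-05), Dgka by 1.10 and 0.71 (SE 0.14 each, limma adjusted p = 8.94e-05 and 0.00242), Cd247 by 1.07 and 0.71 (SE 0.13 each, limma adjusted p = 4.52e-05 and 0.0012) and Cblb by 0.94 and 0.66 (SE 0.09 each, limma adjusted p = 1.33e-05 and 0.000249).

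Orai1 was lower by 0.42 with nephritis (SE 0.14, limma adjusted p = 0.0309) and by 0.88 without (SE 0.14, limma adjusted p = 0.000566), and Grap2 by 0.45 (SE 0.12, limma adjusted p = 0.0086) and 0.77 (SE 0.12, limma adjusted p = 0.00043). For Grap2 the level without nephritis was 1.08 ± 0.11 (SD, n = 2) in NEMO knockout cells, against 1.91, 1.89 and 1.74 in IKK2 knockout cells. Nfatc2 was higher by 0.82 and 0.80 (SE 0.14 each, limma adjusted p = 0.000569 and 0.00092), Ptpn22 by 0.56 and 0.79 (SE 0.11 each, limma adjusted p = 0.0013 and 0.000185) and Fyn by 0.30 and 0.54 (SE 0.09 each, limma adjusted p = 0.0199 and 0.00085). With nephritis, Lcp2 and Csk were also higher, by 0.58 each (SE 0.13 and 0.11, limma adjusted p = 0.00324 and 0.00126), and Pag1 was lower by 0.75 (SE 0.24, limma adjusted p = 0.0223), with -0.21 in the authors' deposited matrix (0.252). The others past the test in 1 or both conditions were Itpr1, Grb2 and Nfatc3 among the higher and Cd3d, Cd28, Vav1, Rasgrp1, Cbl, Dgkz, Ptprc and Ptpn6 among the lower. Several of these calls depended on the processing. Of 14 alternatives, some of which leave out 1 array, 12 ended the call of Cd28 without nephritis. For Ptprc and Itpr1 without nephritis 11 and 8 did, and for Cbl with nephritis 8. With either NEMO knockout array with nephritis left out, the differences stayed at -0.35 and -0.49 for Orai1, 0.30 and 0.30 for Fyn and -0.77 and -0.73 for Pag1 but missed the threshold (limma adjusted p = 0.0692 to 0.176), as did Grap2 at -0.43 without replicate 1 (0.0563). For Lck the differences were -0.33 and -0.24 on the 75th percentile scale and 0.12 and 0.13 after quantile normalization.

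Nephritis itself moved none of the 39 genes past the test within a genotype. In NEMO knockout cells, 0.402% of all genes passed (0.0545% higher and 0.348% lower) and 0 of the 39, with 3 at an unadjusted p under 0.05. The lowest adjusted p was for Txk, at 3.80 and 3.53 with nephritis and 4.05 and 4.12 without (-0.42, SE 0.12, limma adjusted p = 0.291), and both arrays with nephritis lay below both without. In IKK2 knockout cells, 0.443% of all genes passed (0.245% higher and 0.198% lower) and 0 of the 39, with 8 at an unadjusted p under 0.05. There the lowest adjusted p was for Tec, at 2.15, 2.37 and 2.38 with nephritis and 1.96, 1.89 and 1.73 without (0.44, SE 0.09, limma adjusted p = 0.0598). In Cre control cells, 4.03% of all genes passed (2.56% higher and 1.47% lower) and 0 of the 39, with 2 at an unadjusted p under 0.05, and nephritis and slide coincide in this comparison. Lcp2 had the lowest adjusted p, at 1.41 to 1.56 with nephritis and 1.01, 1.22 and 1.21 without (0.34, SE 0.12, limma adjusted p = 0.107), with no overlap. The median of all genes was 0.10 higher with nephritis in these cells, and without Cre control replicate 2 Ppp3ca differed by 0.02.

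Differences between genotypes in the response to nephritis did not pass for any of the 39 genes either. Both comparisons subtract the nephritis difference of Cre control cells, where nephritis and slide coincide. A difference in response and a difference between slides therefore cannot be told apart in them. For NEMO knockout minus Cre control, 0.266% of all genes passed (0.0136% higher and 0.252% lower) and 3 of the 39 genes had an unadjusted p under 0.05, with Tec lowest (-0.43, SE 0.15, limma adjusted p = 0.4). For IKK2 knockout minus Cre control, 1.13% passed (0.3% higher and 0.831% lower) and 6 of the 39 genes had an unadjusted p under 0.05, with Lcp2 lowest (-0.68, SE 0.16, limma adjusted p = 0.0698). In all, 27 of the 39 genes passed in at least 1 comparison, and the matching share of all genes is not given here. The 12 that passed in none were Cd3e, Cd4, Zap70, Lat, Sos1, Themis, Plcg1, Stim1, Ppp3ca, Ppp3cb, Nfatc1 and Ubash3a.

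Other genes of the pathway, in lists drawn up by function, were counted in the same model, to be read against the 48.4% of all genes that passed in NEMO knockout cells with nephritis and the 43% without. The lists were chosen with earlier results of these data known, so their shares are descriptions and not tests of the lists. Of 23 further kinases, adaptors and receptors, 3 were higher and 5 lower in NEMO knockout than in Cre control cells in each condition (34.8%). The costimulatory receptor gene Cd27 differed by -2.11 with nephritis and -1.82 without, Icos by 1.11 and 1.35, and Itgal, an integrin chain, by 0.88 and 1.11.

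Of 19 further calcium and NFAT genes, 7 were higher and 5 lower with nephritis (63.2%) and 6 higher and 5 lower without (57.9%). Plcg2, the phospholipase C gamma of B and myeloid cells, was higher by 1.96 and 3.24, and Rcan3, a calcineurin regulator, was lower by 1.81 and by 1.45. Plcg2 was also higher in untreated IKK2 knockout cells (2.68), where 11 of 12 B cell markers were higher, and the part of such cells in its level was not tested. Of 15 Ras and MAP kinase genes, 2 were higher and 3 lower with nephritis (33.3%) and 2 higher and 2 lower without (26.7%), the leading one with nephritis being Rasal3, a Ras regulator (-0.73). Of 10 phosphoinositide 3-kinase genes, 3 were higher and 3 lower with nephritis (60%) and 3 higher and 2 lower without (50%), with Pik3ip1, an inhibitor of that kinase, lower by 2.09 and by 1.70.

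Of 23 further inhibitors of receptor signalling, 12 were higher and 4 lower with nephritis (69.6%), and 10 higher and 3 lower without (56.5%), in NEMO knockout against Cre control cells. The higher ones included the ubiquitin ligase gene Rnf128 (1.92 and 1.45) and the inhibitory receptor gene Pdcd1 (1.59 and 1.64), so these restraints and Cblb and Dgka moved in opposite directions. Of 14 genes that receptor signals induce, 5 were higher and 5 lower with nephritis (71.4%) and 4 higher and 2 lower without (42.9%). The cytokine genes Ifng and Il2 were higher, by 3.98 and 2.45 with nephritis, and the early response gene Egr3 was lower (-1.75).

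In IKK2 knockout cells with nephritis, where 2.58% of all genes passed, 0 of the 23 kinases, adaptors and receptors, 0 of the 15 Ras genes, 0 of the 19 calcium genes and 0 of the 10 phosphoinositide 3-kinase genes passed. Of the 23 inhibitors, 1 was higher and 2 lower (13%), namely Dusp5, a MAP kinase phosphatase (0.77), Ctla4, an inhibitory receptor (-1.18), and Ubash3b (-0.52). Of the 14 induced genes, 1 was higher and 2 lower (21.4%), namely Cd69, an early activation marker (1.10), Il2 (-1.64) and Il2ra, the high-affinity interleukin-2 receptor chain (-1.72). Without nephritis, where 14.6% of all genes passed, 2 of the 23 kinases, adaptors and receptors, 1 Ras gene and 3 calcium genes were higher and 1 phosphoinositide 3-kinase gene was lower. Of the inhibitors, 4 were higher and 4 lower (34.8%), with Ctla4 at -1.05 and Dusp5 at 0.95, and of the induced genes 2 were higher and 2 lower (28.6%), with Il2 at -1.67, Il2ra at -1.40, Nr4a2 at 1.24 and Nr4a1 at 1.09.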

How the data were processed

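The members and the gene lists were chosen with earlier results of these data known. The authors deposited 1 scanner file per array whose processed intensity, on a linear scale, Agilent Feature Extraction 10.7.3.1 had corrected for background, per the file headers (10.5 per the submitters' processing notes). They also deposited a log2 matrix of the same arrays, used as an alternative, and the sources used here do not name its normalization. Control and outlier spots (103 to 246 per array) were left out, no spot was saturated, and the spots of a probe were averaged. Levels are log2 of that intensity less the array's own 75th percentile. The files name accessions, of which 27235 of 55681 probes matched 1 symbol in a RefSeq table of GRCm38.p6, and the files name build mm9. A gene is its brightest probe among those well above background on at least 2 arrays, and 14675 genes remained.

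A model of 6 group means was fitted to 16 arrays with limma 3.58.1 in R 4.3.3 (11.8 residual plus prior degrees of freedom), two-sided, with Benjamini-Hochberg adjustment over all genes tested within a comparison and a threshold of 0.05. It was checked on simulated data. All adjusted p-values in the text are from limma, SE is the model's standard error, and SD is over arrays. The median of all genes differed by -0.14 between NEMO knockout and Cre control cells with nephritis. The number of arrays limits the precision. Genes named with values were the members past the threshold, at most 10 in a comparison by size with the rest counted or named, and up to 4 of each list. In the main comparison of NEMO knockout and Cre control cells further members past the threshold were given values, and so were members that did not pass. The 36 pairs of arrays with the same replicate number in different groups deviated together at r = -0.197 to 0.126 (median -0.01), with 3 over 0.1. The main model therefore did not pair arrays by number, though such a check cannot exclude a pairing. The files hold no mean signal, so normexp used the median signal with an offset of 50. Python 3.11.15, numpy 2.4.6, pandas 2.3.3 and matplotlib 3.10.9 made tables and plots. Results of some pathway genes are not reported here.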

Additional observations from a re-analysis of the deposited data

Results flagged for a closer look

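In 2 genes the effects of the knockouts passed the test in opposite directions. The difference between the knockouts, given below, follows from those 2 effects and adds no support to them. With nephritis, Tec was lower in NEMO knockout cells (-1.56) and higher in IKK2 knockout cells (0.61) than in the same Cre control cells, and NEMO minus IKK2 knockout was -2.16. Without nephritis, Grap2 was lower in NEMO knockout cells (-0.39) and higher in IKK2 knockout cells (0.38), and NEMO minus IKK2 knockout was -0.77. Each pair of effects shares its control arrays. Of 17 alternatives, 11 ended the Grap2 call in IKK2 knockout cells and 2 the Tec call there. With slide as a block that Grap2 difference was 0.27 (limma adjusted p = 0.339). In NEMO knockout cells, 4 of 15 alternatives ended the Grap2 call and 0 the Tec call.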

How the results depend on the processing

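The 4 NEMO knockout arrays share a slide, so no fixed slide term could be fitted there. With slide as a random block, chosen after seeing the data, 19 and 15 of the 39 genes passed against Cre control cells, with nephritis and without, and 17 and 15 against IKK2 knockout cells. Against Cre control cells without nephritis, 11 passed after normexp correction, against 18. For IKK2 knockout against Cre control cells with nephritis, where 1 passed, 2 did with the percentile taken over probes detected on every array and after quantile normalization, and 0 on slide 1 alone or with only the groups compared. Without nephritis, where 3 passed, 5 did with that percentile, 6 after quantile normalization, 6 in the authors' deposited matrix, 1 with no filter, and 0 with slide as a block, on slide 2 alone or with only the groups compared. For nephritis in IKK2 knockout cells, where 0 passed, 1 did with that percentile, after quantile normalization or with probes averaged. Leaving out 1 array at a time gave 16 to 21 and 12 to 18 genes for NEMO knockout against Cre control cells, 13 to 20 and 11 to 18 against IKK2 knockout cells, 1 and 1 to 5 for IKK2 knockout against Cre control cells, with nephritis and without, and 0 to 1 for nephritis in IKK2 knockout cells. The low ends were 13 without NEMO knockout replicate 2 with nephritis, and 11 and 12 without untreated NEMO knockout replicates 1 and 2. The IKK2 counts were 1 without untreated Cre control replicate 2 or 3 and 5 without untreated IKK2 knockout replicate 3, and 1 for nephritis in IKK2 knockout cells without replicate 1 of either group. A replicate block gave 20 and 17, 21 and 17, and 1 and 2 genes in those 3 pairs of comparisons and 0 for nephritis. Without the 2 Cre control arrays that stood apart, chosen after seeing the data, 20 and 16 passed for NEMO knockout and 1 and 2 for IKK2 knockout against Cre control cells. The share of all genes that passed under each alternative is not given here, so these counts show only how the calls depend on the processing.

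Lck turned positive after quantile normalization and in the authors' deposited matrix, at 0.16 and 0.16 for NEMO knockout against Cre control cells with nephritis, 0.37 and 0.35 without, 0.12 and 0.14 against IKK2 knockout cells with nephritis and 0.13 and 0.13 without. Cblb, for IKK2 knockout against Cre control cells without nephritis, was 0.017 with probes averaged. Ppp3ca ranged from -0.13 to 4.44 for IKK2 knockout against Cre control cells with nephritis and from -4.54 to 0.025 for nephritis in Cre control cells when 1 array was left out, the values near 0 being those without Cre control replicate 2 with nephritis. Without the 2 arrays that stood apart they were -0.13 and 0.018. Of the values of single genes under an alternative, 1033 kept direction and side of the threshold, 198 lost the threshold, 2 gained it and 13 reversed. The cause was not tested.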
